A study of Mus musculus with 2 samples.

Results

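The 10 genes studied here mark the passage from oligodendrocyte (OL) precursor cell (OPC) to premyelinating OL, and were measured in optic nerve RNA-seq of control and *Tcf7l2*ΔHMG mice at P12. The 10 genes were chosen by name, with earlier results of these data known, and each was found in both libraries among 23951 gene names that the libraries share. Of these, 5 are precursor genes (*Pdgfra*, *Cspg4*, *Lhfpl3*, *C1ql1* and *Cacng4*) and 5 are premyelinating genes (*Neu4*, *Bcas1*, *Enpp6*, *Itpr2* and *Fyn*). The control library came from mice labelled Tcf7l2 c/+; OLig1-cre, in which 1 *Tcf7l2* allele was floxed, and the mutant library from mice labelled Tcf7l2 c/c; OLig1-cre, in which both were. Both groups therefore carried *Olig1*-Cre, whose expression lies in the OL lineage, and the control was heterozygous for the deletion in those cells and not wild type. Cre removes the exon that encodes the HMG box, the DNA-binding domain of Tcf7l2, in frame, so that mutant mRNA can still be made. There was 1 library per genotype, the number of animals in each is not given in the sources used here, and the strain background was mixed. No difference below has a replicate check, and no p-value can be given.

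OPCs divide under platelet-derived growth factor, migrate along axons and, on leaving the cell cycle, pass through a short premyelinating stage before they either die or wrap axons. At this stage the precursor receptors and proteoglycans are lost, and a set of enzymes and cytoskeletal proteins that prepare process outgrowth is switched on before the abundant myelin proteins. The optic nerve holds axons but no neuronal cell bodies, and at P12 it contains cells at every stage of the lineage together with astrocytes, microglia, vessels and the meningeal sheath. In whole nerve, fewer cells of a type and less RNA per cell cannot be told apart.

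From the interval bounds of short unnamed rows, the control held 27624000 mapped fragments and the mutant 39938000, or 1.45 times as many. On 1 kb of transcript 3 fragments make 0.109 FPKM (control) or 0.0751 FPKM (mutant), and the lowest of the 10 genes lay at 8.06 FPKM. FPKM is the number of fragments per kilobase of transcript, scaled to library depth, so levels can be set side by side between genes. The error given with each FPKM is the confidence interval that Cufflinks wrote for it, which reflects sampling in that library and holds no spread among animals. Among named rows with a nonzero FPKM, the value lay outside its own interval in 7.26% (control) and 8.64% (mutant). For such rows the interval does not describe the error. The log2 ratio sets the mutant against the control on a log2 scale after 0.1 was added to each FPKM, and a gene was counted as changed past a fold of 1.5, a log2 ratio of 0.58 in either direction. *Tcf7l2* itself had 17.8 FPKM (interval 16.7 to 18.9) in the control and 14.6 FPKM (13.9 to 15.4) in the mutant, a log2 ratio of −0.28. A value over the whole gene does not check the loss of 1 exon.

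Premyelinating genes were lower in the mutant library, and precursor genes lay on both sides of their control level. Of the 5 premyelinating genes, 4 (*Neu4*, *Enpp6*, *Fyn* and *Bcas1*) were lower past the fold of 1.5, and none of the 5 precursor genes passed it in either direction. Over all 14199 genes tested, 8.52% were lower and 15.4% higher past that fold, and 23.9% passed it in either direction. The 4 of 10 stand beside a background of 8.52%, and the 0 of 10 that were higher beside 15.4%. Of the calls over all genes 35.6% were lower ones, which became 92.0% when all rows, unnamed ones included, were scaled to a common sum. The median log2 ratio was −0.63 over the premyelinating genes and −0.093 over the precursor genes, beside 0.047 over all genes tested, of which 90% lay between −0.83 and 1.18. The distance between both medians was −0.54. The precursor median is the value of *Pdgfra* itself, whose row carries another gene name and whose mutant interval is the widest of the 10. With merged names left out, which drops *Pdgfra*, the precursor median was −0.040 and the distance −0.59.

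Promoter sequences are shown for the 3 genes whose log2 ratio was lowest and for 2 precursor genes that did not pass the fold, since the protein whose DNA-binding domain was deleted recognises a short motif with the core TCAAAG. Each is the stretch from position −250 to −51 before the RefSeq start site, on the strand of the gene and in the GRCm38.p6 build, which differs from the mm9 build of the deposited positions. Capitals mark TCAAAG, the core of the TCF/LEF site, or its reverse complement CTTTGA, and in *Lhfpl3* also CAGCTG, an E-box. *Neu4* is at chr1:94020243-94020442, *Enpp6* at chr8:46986637-46986836, *Fyn* at chr10:39369549-39369748, *Lhfpl3* at chr5:22745804-22746003 and *Pdgfra* at chr5:75152001-75152200, all on the plus strand. GENCODE places no exon of the same gene in these stretches, and that of *Lhfpl3* lies within an exon of *A930003O13Rik* on the opposite strand. Bases that follow the start site were found in a GENCODE transcript of the gene for *Neu4*, *Enpp6*, *Fyn* and *Lhfpl3*. For *Pdgfra* they were not, so its start site is less certain.
Neu4: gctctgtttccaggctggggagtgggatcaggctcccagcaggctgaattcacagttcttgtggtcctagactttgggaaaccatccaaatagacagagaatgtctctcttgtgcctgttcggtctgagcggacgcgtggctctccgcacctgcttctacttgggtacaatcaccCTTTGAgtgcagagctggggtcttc
Enpp6: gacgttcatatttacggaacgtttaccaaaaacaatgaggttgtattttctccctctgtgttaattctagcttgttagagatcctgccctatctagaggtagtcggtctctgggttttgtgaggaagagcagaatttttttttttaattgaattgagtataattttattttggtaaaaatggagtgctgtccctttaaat
Fyn: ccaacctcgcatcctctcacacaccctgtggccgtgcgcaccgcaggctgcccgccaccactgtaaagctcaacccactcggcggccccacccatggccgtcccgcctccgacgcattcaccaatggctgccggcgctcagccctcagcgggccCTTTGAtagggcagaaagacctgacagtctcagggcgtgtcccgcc
Lhfpl3: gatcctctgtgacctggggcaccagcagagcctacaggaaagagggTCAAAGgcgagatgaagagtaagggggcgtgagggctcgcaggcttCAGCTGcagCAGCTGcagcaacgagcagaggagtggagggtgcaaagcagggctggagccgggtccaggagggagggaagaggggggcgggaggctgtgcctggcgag
Pdgfra: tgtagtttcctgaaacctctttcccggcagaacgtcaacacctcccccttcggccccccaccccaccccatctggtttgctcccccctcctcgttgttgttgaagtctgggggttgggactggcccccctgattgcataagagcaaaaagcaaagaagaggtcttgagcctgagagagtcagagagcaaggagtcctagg

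Promoters of 250 bases were on hand for 7 of the 10 genes, the other 2 being *Cspg4* and *Itpr2*, and none for *C1ql1*, *Cacng4* and *Bcas1*. The TCF/LEF core was found, counting both strands, in 2 of 4 premyelinating promoters (*Neu4* and *Fyn*) and in 1 of 3 precursor promoters (*Lhfpl3*), beside 13.9% of 32536 promoters of this length. In *Neu4* it spans positions −75 to −70 and in *Fyn* −96 to −91, on the opposite strand to the gene. In *Lhfpl3* it spans −204 to −199, on the strand of the gene. The motifs do not overlap each other. The promoter of *Enpp6* held none. The Sox core ACAAAG, present in 16.5% of all promoters, and the TATA box TATAAA, present in 12.3%, were in none of the 7. The E-box, present in 13.1% of all promoters, was found in *Lhfpl3* alone among the 7, where it occurs 2 times. These matches describe letters within 250 bases and no binding was measured in these libraries. Genes with the core were found on both sides of the fold.

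**Figure D1:**
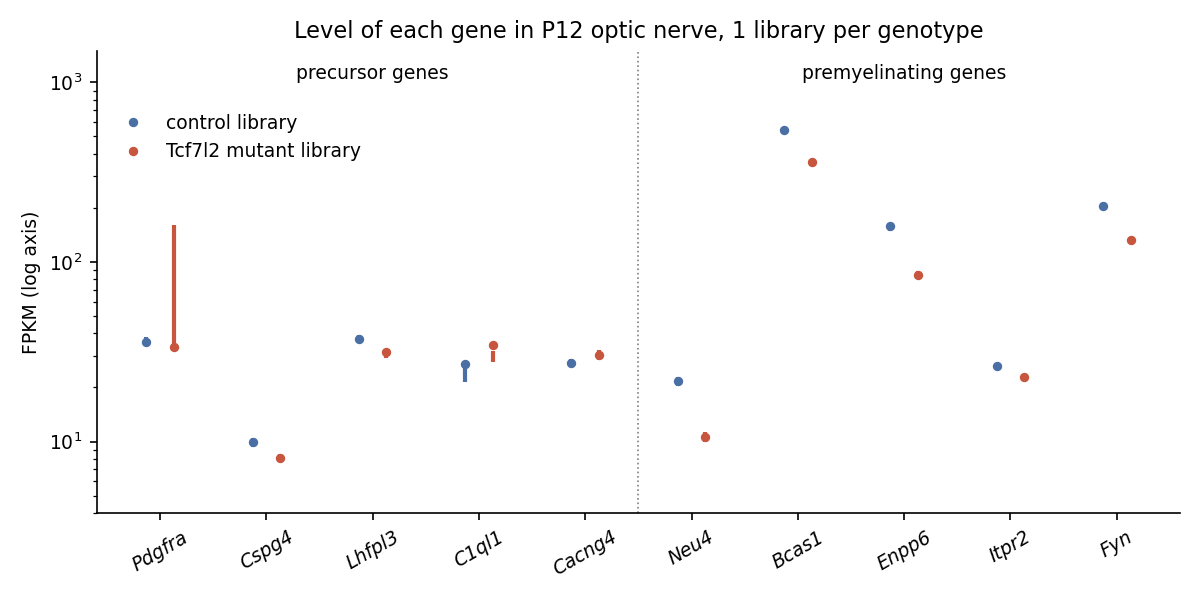
FPKM of the 10 genes (log axis) in the control and the *Tcf7l2* mutant library, with the Cufflinks interval of each value as a vertical line, which is shorter than the point for most genes. The mutant point lies below the control point for each of the 5 premyelinating genes, while *C1ql1* and *Cacng4* lie higher in the mutant on the deposited scale, an order that turns when all rows are scaled to a common sum.

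Among the precursor genes, the growth factor receptor and the proteoglycan that define the OPC were measured first. *Pdgfra*, the receptor through which platelet-derived growth factor keeps OPCs dividing, had 35.9 FPKM (35.1 to 38.0) in control nerve and 33.6 FPKM (32.0 to 161.1) in the mutant. Its log2 ratio was −0.093 and the intervals overlapped. The row of *Pdgfra* (mm9, chr5:75548316-75594229, as the files give it) also carries the name of the microRNA gene *Mir7025*. The upper bound of the mutant interval lies far above the value, and the part of the microRNA in it was not tested. *Cspg4*, the chondroitin sulphate proteoglycan that is also known as NG2 (chr9:56712911-56747677), was the lowest of the 10, at 9.93 FPKM (9.34 to 10.4) in control nerve and 8.06 FPKM (7.69 to 8.49) in the mutant. Its log2 ratio of −0.30 was the lowest among the precursor genes, and the intervals did not overlap, but the ratio stayed within the fold of 1.5.

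The remaining precursor genes encode surface and secreted proteins. *Lhfpl3* (chr5:22252011-22781415), which encodes a protein with several membrane spans, had 37.2 FPKM (35.6 to 39.2) in control nerve and 31.6 FPKM (29.2 to 31.8) in the mutant, a log2 ratio of −0.24 with intervals that did not overlap. *Cacng4* (chr11:107593675-107657262), an auxiliary subunit of AMPA-type glutamate receptors, had 27.3 FPKM (25.9 to 28.8) and 30.4 FPKM (28.5 to 32.4), a log2 ratio of 0.16 with intervals that overlapped, which turned negative when all rows were scaled to a common sum. *C1ql1* (chr11:102800578-102807775), a secreted protein with a C1q domain, had 27.2 FPKM in control nerve and 34.6 FPKM in the mutant, a log2 ratio of 0.35 that also turned negative on that scale. Both values of *C1ql1* lay above their own intervals, 21.4 to 26.1 and 27.7 to 31.8, so the intervals do not describe the error of these values. The 5 precursor genes stood on both sides of equality on the deposited scale, 3 below and 2 above (5 below when all rows are scaled to a common sum), and their FPKM summed to 137.5 in the control and 138.3 in the mutant. These near-equal sums include the uncertain values of *C1ql1*, which rose most among the 5.

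The premyelinating genes were lower in the mutant in 5 of 5 cases, with no overlap of the intervals for any of them, a state reached with a lower value by 22.4% and with a higher value by 30% of all genes tested. *Neu4* (chr1:95917008-95924907), a sialidase that trims sialic acid from glycoproteins and glycolipids, fell furthest, from 21.6 FPKM (20.4 to 22.8) to 10.6 FPKM (9.99 to 11.3). This is 51.0% lower, a log2 ratio of −1.02, and 3.54% of all genes tested had a lower one. *Enpp6* (chr8:48072189-48182111), a phosphodiesterase that acts on choline lipids and is known as a marker of newly forming OLs, fell from 158.0 FPKM (149.6 to 159.0) to 84.8 FPKM (82.6 to 88.6). This is 46.3% lower, a log2 ratio of −0.90, and 4.46% of genes had a lower one. Neither gene had overlapping intervals, and *Neu4* was the only gene of the 10 to pass a fold of 2, which 3.68% of all genes tested did in the same direction and 6.87% in the other.

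*Fyn* and *Bcas1* passed the fold of 1.5 more narrowly. *Fyn* (chr10:39089605-39285180), a Src family kinase that relays signals from axon contact to the OL cytoskeleton, fell from 204.2 FPKM (202.5 to 211.0) to 132.0 FPKM (131.3 to 136.5), a log2 ratio of −0.63. *Bcas1* (chr2:170172491-170253345), whose protein labels OLs that are starting to myelinate, fell from 544.3 FPKM (545.9 to 560.0) to 361.3 FPKM (361.3 to 372.1), a log2 ratio of −0.59. The control value of *Bcas1* lay just below its own interval. At 1.51-fold lower it is the gene just inside the threshold, and after scaling to the 75th percentile it was just outside, at −0.58. *Itpr2* (chr6:146056821-146450745), an inositol trisphosphate receptor that releases calcium from the endoplasmic reticulum, had 26.5 FPKM (26.0 to 27.5) in control nerve and 22.9 FPKM (22.6 to 23.8) in the mutant. Its log2 ratio of −0.21 lay within the range of the precursor genes, between those of *Lhfpl3* and *Pdgfra*. *Itpr2* was thus the premyelinating gene that did not pass the fold.

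In level, *Bcas1*, *Fyn* and *Enpp6* stood in this order at the top in both libraries, and *Itpr2*, *Neu4* and *Cspg4* in this order at the bottom. In the control, however, the interval of *Itpr2* overlaps those of *Cacng4* and *C1ql1*, and that of *Neu4* overlaps that of *C1ql1*. *Bcas1* had 54.8 times the FPKM of *Cspg4* in the control and 44.8 times in the mutant. Between these groups *Lhfpl3* led *Pdgfra*, *Cacng4* and *C1ql1* in the control, whereas by FPKM alone *C1ql1* stood before *Pdgfra*, *Lhfpl3* and *Cacng4* in the mutant. In the control, *Lhfpl3* and *Pdgfra* had overlapping intervals, as did *Lhfpl3* and *Cacng4* in the mutant, so these neighbours did not differ beyond their intervals. The place of *C1ql1* in either order is uncertain, since it rests on values outside their own intervals, and in the mutant its interval lies below that of *Pdgfra* and overlaps those of *Lhfpl3* and *Cacng4*. Premyelinating genes summed to 954.6 FPKM (control) and 611.7 FPKM (mutant), and *Bcas1* made up 57.0% and 59.1% of these sums. Without *Bcas1* the sums were 410.3 and 250.4.

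A ratio between 2 genes of the same library does not depend on how the libraries are scaled against each other. Each premyelinating gene was therefore divided by each precursor gene, and 23 of the 25 ratios were lower in the mutant library. The pairs share genes and are not independent. *Enpp6* had 4.40 times the FPKM of *Pdgfra* in the control and 2.52 times in the mutant. *Neu4* had 0.603 times the FPKM of *Pdgfra* in the control and 0.315 times in the mutant. The widest shift was that of *Neu4* over *C1ql1*, from 0.796 to 0.306, a log2 change of −1.38. Both *C1ql1* values lie outside their own intervals, so ratios over *C1ql1* are uncertain. Apart from those, the widest shift was that of *Neu4* over *Cacng4*, from 0.793 to 0.348, a log2 change of −1.19. The exceptions were *Itpr2* over *Cspg4*, from 2.67 to 2.84, and *Itpr2* over *Lhfpl3*, from 0.711 to 0.726. Over all 25 pairs the median log2 change was −0.66. Summed over each stage, premyelinating genes had 6.94 times the FPKM of precursor genes in the control and 4.42 times in the mutant. The precursor sums include the uncertain values of *C1ql1*.

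**Figure D2:**
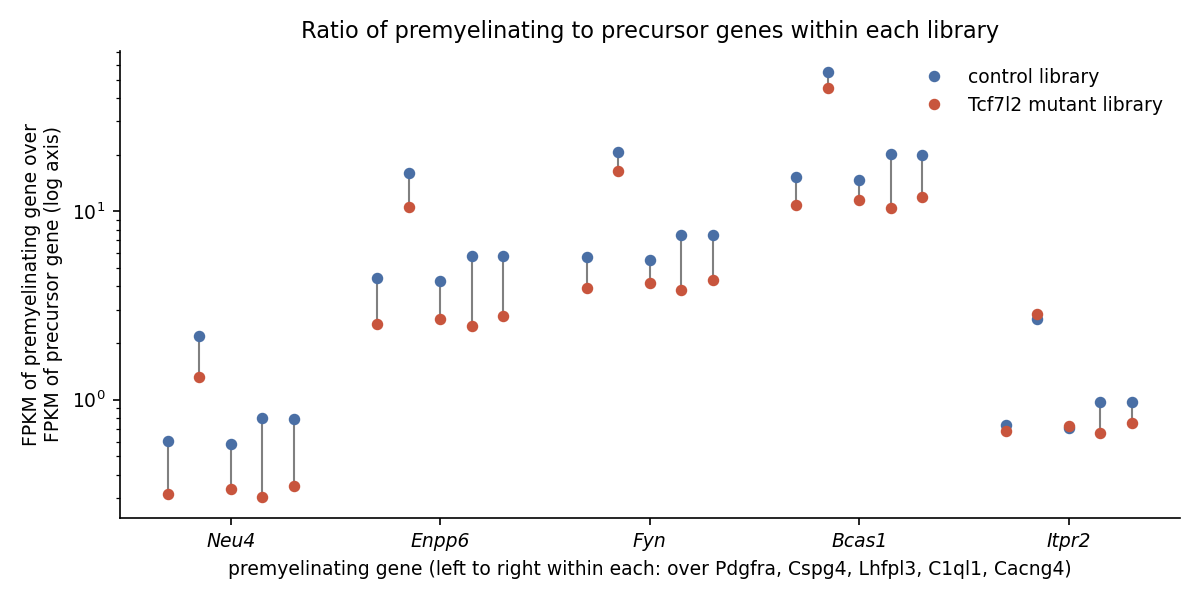
FPKM of each premyelinating gene divided by that of each precursor gene (log axis), in the control and the *Tcf7l2* mutant library, joined by a line for each pair. The mutant ratio is the lower one in 23 of 25 pairs, and the 2 exceptions belong to *Itpr2*.

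Other genes of the lineage were taken from lists for precursors, for committed precursors and newly formed OLs, and for myelinating OLs. These lists were chosen with earlier results of these data known, so they give no independent support for a pattern among the 10 genes. Of 15 other precursor genes, 2 were lower and 3 higher past the fold of 1.5, with a median log2 ratio of −0.028 (8 lower and none higher when all rows are scaled to a common sum). Over all genes tested, 8.52% were lower and 15.4% higher past the fold, and 52.1% and 4.51% on that other scale. *Gria3*, an AMPA receptor subunit, had 9.13 FPKM in control nerve and 5.67 FPKM in the mutant (log2 ratio −0.68), and *Vcan*, the proteoglycan versican, 41.0 and 26.3 FPKM (−0.64). *Cdo1*, a cysteine dioxygenase, had 10.4 and 19.2 FPKM (0.88) and was within the fold when all rows were scaled to a common sum. *Emid1*, a secreted matrix protein, passed the fold narrowly at 0.59 and turned to below 0 on that scale.

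Of 18 other genes of committed precursors and newly formed OLs, 8 were lower and 1 higher past the fold (15 and none when all rows are scaled to a common sum), with a median log2 ratio of −0.49. The shares over all genes tested were 8.52% and 15.4%, or 52.1% and 4.51% on that other scale. The largest falls in this list exceeded that of *Neu4*. *Casr*, the calcium-sensing receptor, fell from 17.7 to 3.09 FPKM (log2 ratio −2.48). *Tmem2*, a cell surface hyaluronidase, fell from 26.0 to 6.84 FPKM (−1.91), and *Tmem163*, a zinc transporter, from 71.1 to 27.1 FPKM (−1.39). *Bmp4*, a bone morphogenetic protein made by committed precursors, rose from 38.0 to 68.6 FPKM (0.85), which was against the direction of the list and no longer past the fold when all rows were scaled to a common sum. Of 14 genes of myelinating OLs, 8 were lower and none higher past the fold (13 and none on that other scale, 11 and none with named rows scaled), with a median of −0.82. With named rows scaled, 1518 of the 14199 genes tested were lower and 1906 higher past the fold. The lowest were *Mobp*, a protein of compact myelin, at −2.04 and *Ermn*, a cytoskeletal protein of myelinating OLs, at −1.36. From precursor to premyelinating to myelinating lists, the medians on the deposited scale were −0.093, −0.63 and −0.82, and no test of this order was made.

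**Figure D3:**
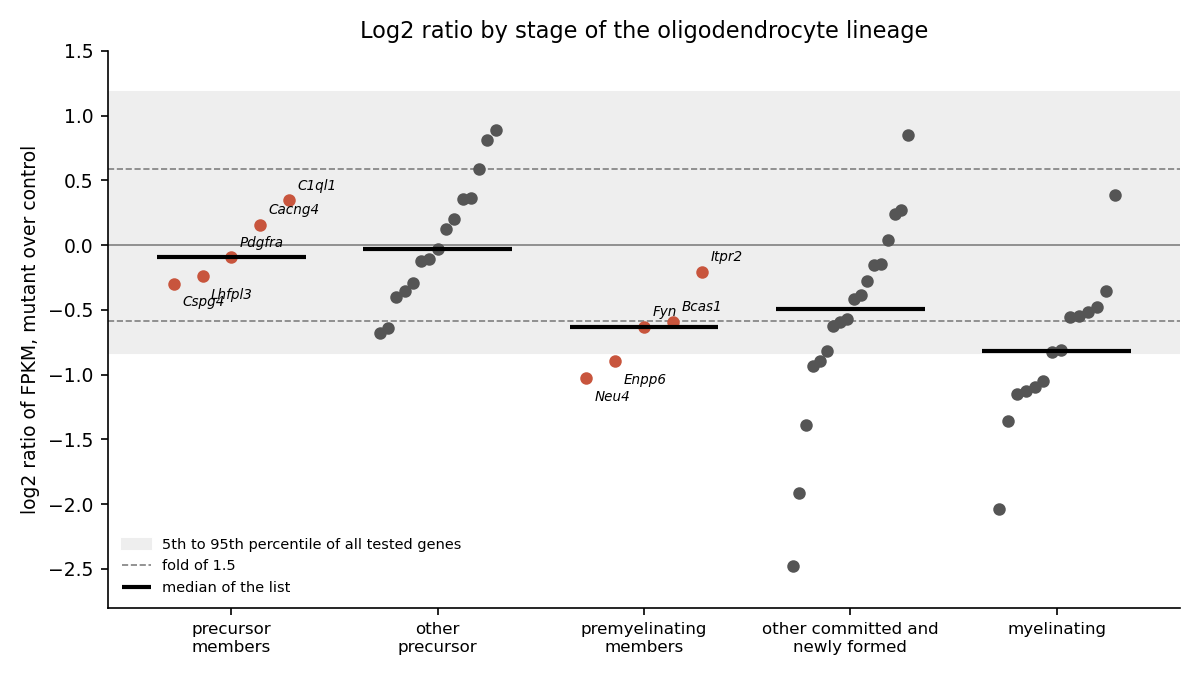
Log2 ratio of mutant over control FPKM for the 10 genes (coloured, named) and for other genes of the OL lineage (grey), with the median of each list as a bar, the fold of 1.5 as dashed lines and the range of 90% of all genes tested as a band. The medians are −0.093 for the precursor genes and −0.028 for other precursor genes. They are −0.63 for the premyelinating genes, −0.49 for other genes of committed precursors and newly formed OLs, and −0.82 for myelinating genes.

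Genes of division and of the signalling around *Pdgfra* and *Fyn* did not pass the fold on the deposited scale. None of 10 proliferation genes passed the fold on the deposited scale (6 were lower past it when all rows were scaled to a common sum), with a median log2 ratio of −0.019 and a range from −0.20 to 0.35. Over all genes tested, 23.9% passed the fold in either direction on the deposited scale, and 52.1% were lower past it on the other. *Mki67*, which is made by dividing cells, had 8.99 FPKM in control nerve and 11.5 FPKM in the mutant. None of 14 signalling partners passed it either (10 were lower past it on that other scale), with a median of −0.085 and a range from −0.44 to 0.35. *Pdgfa*, the ligand of *Pdgfra*, had 51.0 and 51.9 FPKM, with intervals that overlapped. *Cntn1*, an adhesion molecule that signals through *Fyn*, had the lowest ratio of these partners, with 64.9 and 47.7 FPKM.

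Some of the 10 genes are also made by other cells of the nerve, and markers of those cells differed between the libraries. Beside the counts below, 8.52% of all genes tested were lower and 15.4% higher past the fold. When all rows are scaled to a common sum these shares were 52.1% and 4.51%. Meningeal fibroblasts express *Pdgfra*, and their 8 markers were higher in the mutant in 8 of 8 cases, 4 of them past the fold (4 of 8 higher, none past it, when all rows are scaled to a common sum), with a summed level of 1339 FPKM in control nerve and 1857 FPKM in the mutant. Pericytes express *Cspg4*, and of their 8 markers 2 were lower and 2 higher past the fold (4 lower and none higher when all rows are scaled to a common sum), with sums of 279.0 and 363.2 FPKM. The largest pericyte values were those of *Vtn*, at 159.9 and 256.4 FPKM, and without it the sums were 119.1 and 106.9 FPKM. *Rgs5* had 63.0 and 40.5 FPKM and *Higd1b* 8.51 and 3.83 FPKM, both lower past the fold. Astrocytes express *Itpr2*, and 7 of their 8 markers were higher in the mutant, 1 past the fold (1 of 8 higher on that other scale), with sums of 5116 and 6048 FPKM, most of it *Gfap*. No marker of these lists was at 0 in either library. The part of these cells in the ratios of *Pdgfra*, *Cspg4* and *Itpr2* was not tested.

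Further lists moved in both directions, beside 8.52% of all genes tested lower and 15.4% higher past the fold (52.1% and 4.51% when all rows are scaled to a common sum). Microglia markers had a median log2 ratio of 0.15 (8 genes, none past the fold, or 3 lower when all rows are scaled to a common sum, summed 264.4 and 304.3 FPKM) and endothelial markers one of −0.42 (8 genes, 2 lower and 1 higher past the fold, or 6 and none when all rows are scaled to a common sum, summed 176.4 and 140.6 FPKM). Neuronal markers were low, with sums of 33.3 and 52.9 FPKM over 5 genes tested, of which 4 were higher past the fold in the mutant and 1 when all rows were scaled to a common sum. Red blood cell markers were higher past the fold in 5 of 5 cases (2 of 5 on that other scale), with sums of 251.6 and 630.5 FPKM. However, *Hba-a1* and *Hba-a2* share their rows, so their calls are not separate and their level enters these sums 2 times. Counted 1 time, the sums were 162.9 and 402.7 FPKM. Of 4 smooth muscle markers 3 were tested, and *Tagln* was listed at 0 in the control and at 35.3 FPKM in the mutant. The other tested smooth muscle markers did not pass the fold, with 11.9 and 13.8 FPKM for *Acta2*, whose intervals overlapped, and 1.85 and 1.44 FPKM for *Myh11*. Whether these differences in tissue content bear on the 10 genes was not tested. When all rows are scaled to a common sum, astrocyte, microglia and fibroblast medians are below 0, but relative to the median of all genes on that scale they are 0.21, 0.093 and 0.52.

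**Figure D4:**
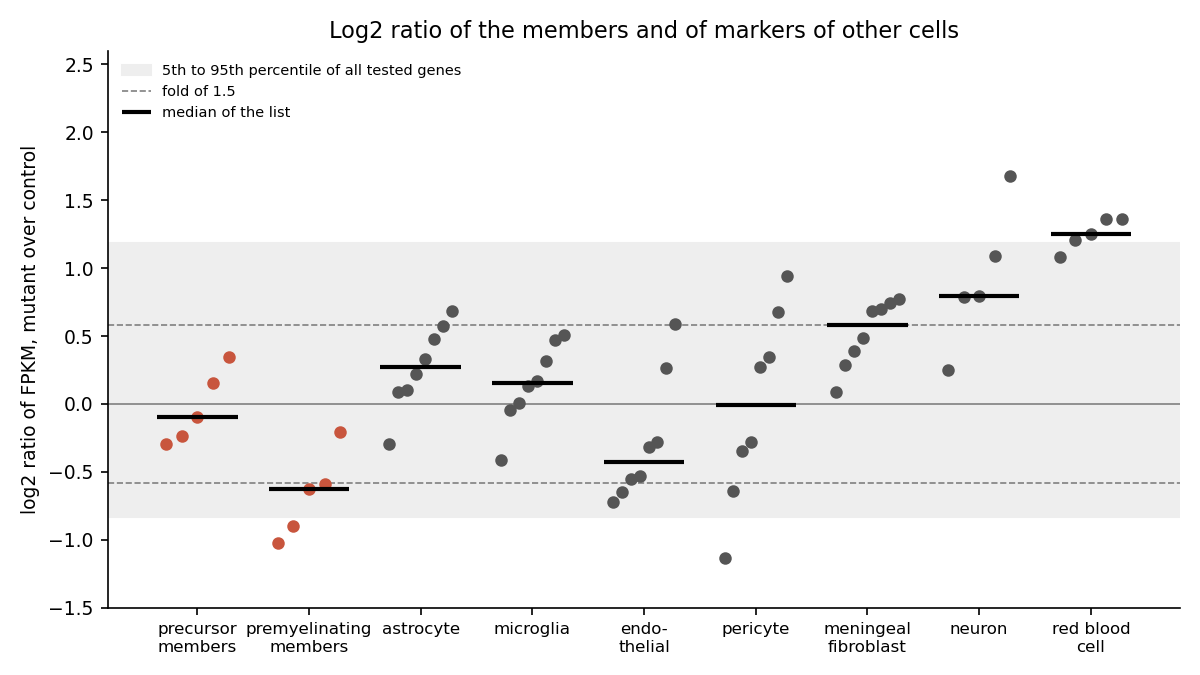
Log2 ratio of mutant over control FPKM for the 5 precursor and 5 premyelinating genes (coloured) and for markers of other cells of the nerve (grey), with medians as bars, the fold of 1.5 as dashed lines and the range of 90% of all genes tested as a band. On the deposited scale fibroblast, neuronal and red blood cell markers lie above 0 and the premyelinating genes below it, while the medians of astrocyte, microglia and fibroblast markers fall below 0, though not below the median of all genes, when all rows are scaled to a common sum.

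A scale between the libraries shifts the log2 ratios of all genes by about the same amount, so it moves single ratios against the threshold and leaves their order in place by construction. Unnamed rows made up 70.7% of all FPKM (control) and 80.7% (mutant), so scaling all rows to a common sum lowered the median of all genes tested to −0.61. Some unnamed rows lay far above their own intervals, such as a control row inside *Itpr2* at 138.3 FPKM (1.96 to 7.50). The part of such rows in the all-row sum was not tested. On that scale 8 of the 10 genes were lower past the fold, but so were 52.1% of all genes tested, while 4.51% were higher, and *C1ql1* and *Cacng4* turned from above to below 0. Relative to the median of all genes, the values on that scale were −0.15 for *Pdgfra*, −0.35 for *Cspg4*, −0.30 for *Lhfpl3*, 0.28 for *C1ql1* and 0.096 for *Cacng4*. For the premyelinating genes they were −1.07 for *Neu4*, −0.96 for *Enpp6*, −0.69 for *Fyn*, −0.66 for *Bcas1* and −0.27 for *Itpr2*. With only named rows scaled to a common sum, the log2 ratios of *C1ql1* and *Cacng4* stayed positive, at 0.28 and 0.087. 

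**Figure D5:**
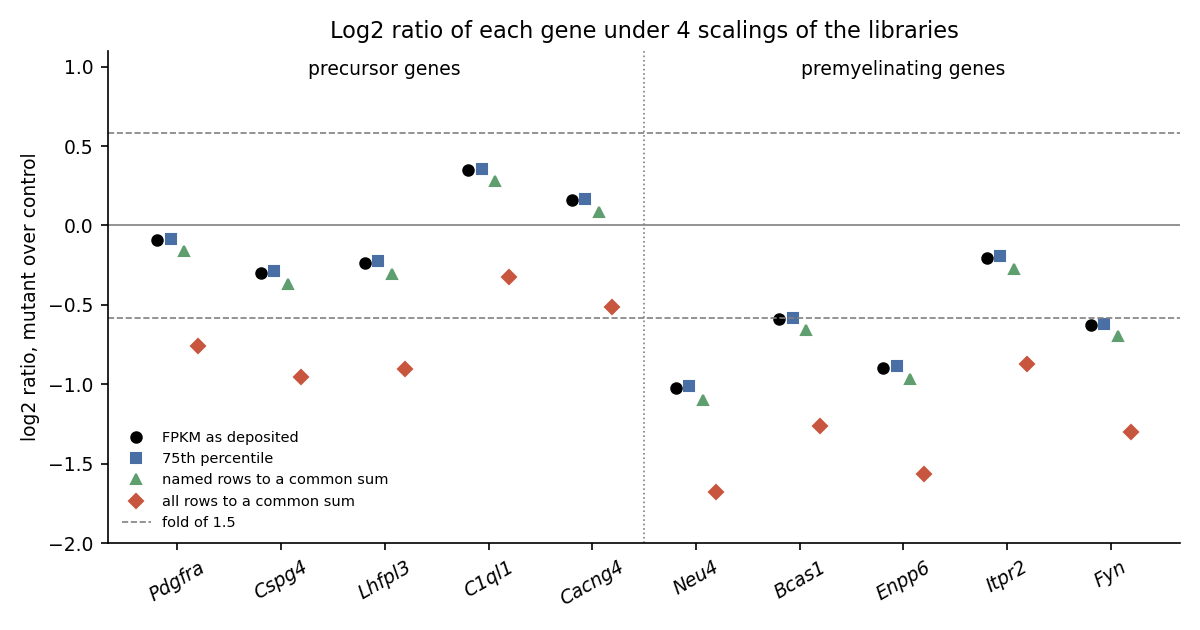
Log2 ratio of mutant over control for each of the 10 genes with FPKM as deposited and after 3 other scalings of the libraries, with the fold of 1.5 as dashed lines. Scaling all rows to a common sum moves all 10 genes down, takes *C1ql1* and *Cacng4* below 0 and leaves the premyelinating genes lowest apart from *Itpr2*.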

How the data were processed

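RNA-seq of P12 optic nerves was analysed from 1 control and 1 *Tcf7l2* mutant library. The authors mapped reads with TopHat at default settings (genome build mm9 per the submitters' processing notes) and computed FPKM, an interval for each FPKM and a status with Cufflinks. Versions are not given in the sources used here. The deposited FPKM were used without a count model. Comma-merged gene names were split and FPKM summed per symbol. Genes were tested (14199) where the status was OK in each library and FPKM reached 1 in either, with a pseudocount of 0.1. Depth is the smallest number of fragments at which the interval bounds of unnamed rows under 100 bases were whole multiples, within 0.01 for 99.5% of bounds in the control and 99.7% in the mutant. Since there was 1 library per genotype, values are described by fold and no test was run. The 10 genes and all lists were chosen with earlier results of these data known. Named genes were the 10, *Tcf7l2*, up to 3 falls and 3 rises past the fold per lineage list, and markers needed to describe a cell type; *Mki67*, *Pdgfa*, *Cntn1*, *Rgs5*, *Higd1b*, *Acta2* and *Myh11* were chosen after their values were seen, and a few genes that the rule names are not reported here. Promoters were RefSeq sequences (GRCm38.p6), matched by symbol for 7 genes, and the printed stretch ends at position −51. Positions of a gene in mm9 join its rows in both libraries. No position was converted between builds. The computation was tested on simulated data. The alternatives changed the pseudocount (1 or 0.01), the filter (none, FPKM reaching 5 in either library, or reaching 1 in each) and the scale (log2 ratios centred on their median, 75th percentile made equal, all rows or named rows set to a sum of 1000000), or used the highest row per symbol, merged names left out, any status and a fold above 2. Computations ran in numpy 2.4.6 and pandas 2.3.3 under Python 3.11.15, and plots in matplotlib 3.10.9.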

Additional observations from a re-analysis of the deposited data

Results flagged for a closer look

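Rows without a gene name that lie inside the span of a gene hold fragments that are not part of its FPKM. Flagged were 3 of the 10 genes, for which the highest such row was higher in the mutant than any in the control. Genes with the opposite order were not flagged. Inside *Itpr2* the highest row had 138.3 FPKM (1.96 to 7.50) in the control and 3.67 FPKM (0.55 to 2.13) in the mutant. Inside *C1ql1* the control had 1 row at 16.0 FPKM (3.57 to 8.03) and the mutant none. These values lie above their own intervals. Inside *Neu4* the mutant had 1 row of 150 bases at 59.3 FPKM and the control none. That FPKM lay far above its own interval of 2.50 to 7.01, so the value is not backed by the interval. Inside *Cacng4* the mutant had a row of 1378 bases at 33.3 FPKM (27.2 to 30.8), from base 107593708 to 107595085 of chromosome 11 in mm9. The named row of *Cacng4* covered that stretch in the control, where it began at 107593675, but began at 107595167 in the mutant. Inside *Cspg4* the mutant had 1 row at 9.16 FPKM (0.91 to 3.32), and the control had 3 of which the highest was 7.10 FPKM (1.40 to 4.32). Both values lie far outside their own intervals, which overlap, so the higher mutant value is not backed by them. The part of unnamed rows in the ratios of these genes was not tested.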

How the results depend on the processing

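With 1 library per genotype, no replicate could be left out. No paired analysis was possible because each genotype has 1 library. The count of 4 genes lower past the fold became 8 when all rows were scaled to a common sum of 1000000, 1 with a fold above 2 and 3 after scaling to the 75th percentile, where *Bcas1* dropped out. Scaling all rows moved the median log2 ratio from −0.093 to −0.76 for precursor genes and from −0.63 to −1.30 for premyelinating genes, by the larger share of unnamed rows in the mutant, and scaling named rows moved the latter to −0.70. The distance between both medians is fixed by construction, but for the pseudocount, under scaling, centring and the filters, which treat the 10 genes alike or leave them in place. It was −0.53 with a pseudocount of 1, −0.54 with 0.01 and −0.59 with merged names left out. No gene of the 10 was higher past the fold under the 13 alternatives run for that count, but many of these could not change it. The filters, the highest row per symbol and any status left all 10 ratios as they were, and a fold above 2 cannot add calls. With merged names left out *Pdgfra* was absent. Over all genes, 1210 lower and 2185 higher calls became 7398 and 640 with all rows scaled, 522 and 975 with a fold above 2, and 889 and 1290 with FPKM reaching 5. Depth did not limit these genes, since all lay far above the value of 3 fragments.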
